A study of Mus musculus with 9 samples.

Results

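Folr1, Cd320, Abcg2 and Slc34a2 encode membrane proteins that carry folate, cobalamin (vitamin B12), small organic molecules and phosphate. All probe sets of the MG-U74Av2 array whose platform symbol or older synonym is one of these 4 names were taken, which gave 5 of the 12422 probe sets and 4 of the 8251 named genes. A probe set is a group of short probes that together give 1 signal. Folr1 was represented by 2 probe sets (93785_at and 162302_f_at), and Cd320 (102343_at), Abcg2 (93626_at) and Slc34a2 (98994_at) by 1 each. The genes were selected on their stage levels on these same arrays, all for a strong pattern over the stages, so these levels are given as a description with no test. RNA came from the whole inguinal (no. 4) mammary gland of untreated wild type C57BL/6J females, an inbred mouse. Puberty (virgin females at 6 weeks of age) had 3 arrays, and pregnancy (day 14), lactation (day 10) and involution (day 4 after weaning) had 2 arrays each, all with RNA of separate biological replicates. A whole gland holds epithelium together with the fat pad, vessels, immune cells and, at the edge, muscle, and each stage is a single time point of 1 mouse line.

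The milk-secreting epithelium takes up vitamins and minerals from the blood at its basal side and passes them to milk at its apical side. Folate receptors bind folate at the cell surface and bring it in by endocytosis, and folate then carries one-carbon units for the synthesis of nucleotides and amino acids. Cobalamin travels in blood on transcobalamin, whose complex is taken up by the receptor that Cd320 encodes. Slc34a2 encodes NaPi-IIb, a sodium-coupled phosphate transporter of epithelia, and Abcg2 encodes the breast cancer resistance protein, an ATP-driven exporter that is known to move riboflavin and many drugs into milk. The study set genes of the mouse gland beside regions of the cattle genome linked to milk production traits, and ABCG2 was among its candidates there.

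The sequences before the start sites of the genes are shown because the genes shared a high level at lactation, although which start site was used was not measured. RefSeq windows of 250 bases before to 50 bases after the start (GRCm38.p6) were at hand for 3 of the 4 genes, with 3 windows for Abcg2, 2 for Cd320 and 1 for Slc34a2. The 250 bases before the start are printed below 5′ to 3′ on the plus strand, for Slc34a2 at chr5:53049103-53049352, for start 2 of Cd320 at chr17:33843176-33843425 and for start 3 of Abcg2 at chr6:58640296-58640545. Capitals mark GC boxes (GGGCGG on either strand) and the CCAAT box (CCAAT on either strand).
Slc34a2: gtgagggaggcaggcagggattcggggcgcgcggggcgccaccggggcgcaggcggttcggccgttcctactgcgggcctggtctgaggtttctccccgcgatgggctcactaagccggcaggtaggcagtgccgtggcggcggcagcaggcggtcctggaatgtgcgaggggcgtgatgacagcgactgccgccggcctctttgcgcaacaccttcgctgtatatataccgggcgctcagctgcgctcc
Cd320: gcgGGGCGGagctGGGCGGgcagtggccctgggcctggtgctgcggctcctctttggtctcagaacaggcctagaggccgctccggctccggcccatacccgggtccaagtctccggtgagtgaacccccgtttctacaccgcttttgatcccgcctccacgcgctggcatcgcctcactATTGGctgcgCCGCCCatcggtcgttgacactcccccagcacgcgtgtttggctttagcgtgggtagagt
Abcg2: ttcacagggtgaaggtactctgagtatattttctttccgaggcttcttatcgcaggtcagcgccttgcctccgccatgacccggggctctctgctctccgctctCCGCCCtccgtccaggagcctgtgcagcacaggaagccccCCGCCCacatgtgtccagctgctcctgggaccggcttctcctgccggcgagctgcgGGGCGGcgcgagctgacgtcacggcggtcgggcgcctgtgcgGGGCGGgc
The windows were searched on both strands for these boxes, for the TATA box (TATAAA) and for the STAT5 consensus (TTCNNNGAA), and no matches overlapped each other. A GC box was held by the windows of starts 2 and 3 of Abcg2 and of start 2 of Cd320, and by 35.66% of all 32851 windows of this length. The CCAAT box was held by the windows of start 2 of Cd320 and of Abcg2 and by 37.41% of all windows. The TATA box was held by the windows of starts 1 and 2 of Abcg2, at or after the start site, and by 13.62% of all windows. Only the exact letters TATAAA were counted, so the run tatatata near the end of the printed Slc34a2 sequence is not among them. The STAT5 consensus, the letters bound by the factor that prolactin activates, was in none of the 6 windows, against 8.298% of all windows, which says only that these letters are not in these windows. The GC content was 68.7% in the Slc34a2 window, 67% and 66.7% in the printed Abcg2 and Cd320 windows, and 52.7% in the median window. In the windows not printed it was below that median, at 50% and 48% for starts 1 and 2 of Abcg2 and 51.7% for start 1 of Cd320.

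The authors computed the signals with MAS5 and scaled each array. The arrays were then set to equal medians by factors of 0.948 to 1.06, and signals under 20, the level under which the methods discard a transcript, were set to 20 (the floor) before log2 was taken. Replicate arrays correlated with r of 0.947 to 0.975, and no array was left out. Of the 9783 probe sets that passed the filter of a mean signal above 20 in at least 1 stage, 51.6% differed across the 4 stages by limma's F test at an adjusted p of 0.05. The 5 transporter probe sets all passed the filter, the Slc34a2 probe set through pregnancy and lactation alone and the dimmer Folr1 probe set through every stage but puberty. Signals of different probe sets are not compared with each other, because each has its own response.

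Folr1, which encodes folate receptor alpha, was high at lactation and far lower at every other stage. On the brighter probe set the signals were 37.9, 61.6 and 38.5 at puberty, 231 and 167 at pregnancy, 9952 and 8047 at lactation, and 159 and 248 at involution. Both lactation arrays were above all others, and the lower of them was 32.5 times the highest array of any other stage. Pregnancy and involution overlapped and both lay above puberty. The stage means were 46.0 ± 13.5 (SD, n = 3), 199 ± 45.6 (SD, n = 2), 8999 ± 1347 (SD, n = 2) and 203 ± 62.7 (SD, n = 2) in stage order. On the log2 scale, lactation was 5.51 above pregnancy (standard error 0.34), and involution differed from lactation by -5.50 (standard error 0.34). The level did not go back to that of puberty: involution was 2.15 (standard error 0.31) above puberty on the log2 scale, a 4.43-fold difference.

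The dimmer Folr1 probe set gave the same order on a lower signal. Its name carries the suffix that the manufacturer gave to probe sets with probes shared among similar sequences, so related transcripts may add to it. Its signals were 7.14, 14.2 and 13.2 at puberty, all under the floor, 63.7 and 61.5 at pregnancy, 1549 and 1078 at lactation, and 54.2 and 88.5 at involution. Lactation stood apart again, by 4.37 (standard error 0.27) over pregnancy on the log2 scale, and pregnancy and involution overlapped. Lactation was at least 64.6-fold above puberty, where only the bound set by the floor can be given. Over the 9 arrays the log2 values of both probe sets correlated with r = 0.996.

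Cd320, the receptor gene for transcobalamin-bound cobalamin, had the mildest pattern of the 4 genes. Its signals were 150, 201 and 204 at puberty, 304 and 293 at pregnancy, 1069.7 and 1188 at lactation, and 116 and 135 at involution. No 2 stages overlapped, and the order was lactation, pregnancy, puberty and involution. The stage means were 185 ± 30.4 (SD, n = 3), 298 ± 7.89 (SD, n = 2), 1129 ± 83.6 (SD, n = 2) and 126 ± 13.6 (SD, n = 2). On the log2 scale, lactation was 1.92 above pregnancy (standard error 0.17), and involution differed from lactation by -3.17 (standard error 0.17). Its lowest stage was involution, where the log2 level differed from puberty by -0.55 (standard error 0.15). The highest involution array, 135, lay below the lowest puberty array, 150, which is a narrow gap for 2 and 3 arrays.

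Slc34a2, the gene of the phosphate transporter NaPi-IIb, was measured above the floor at pregnancy and lactation only. Its signals were 8.0, 4.78 and 7.13 at puberty, 47.2 and 60.8 at pregnancy, 8612 and 6999.6 at lactation, and 8.60 and 7.28 at involution. All 5 arrays of puberty and involution lay under the floor of 20, where values have no order. At lactation the mean was 7806 ± 1140 (SD, n = 2), against 54.0 ± 9.66 (SD, n = 2) at pregnancy, a log2 difference of 7.18 (standard error 0.15) or 145-fold. Lactation was at least 388-fold above both puberty and involution with the floor applied. Among the 9783 probe sets, its difference between lactation and pregnancy ranked 5 from the top, as a description of the values that chose it, and no rank is given for involution, where its level is only bounded by the floor. Standard errors that involve its floored stages are too small, because the floor removes the spread there.

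Abcg2, the exporter gene, had signals of 70.6, 86.6 and 81.6 at puberty, 161 and 199 at pregnancy, 4126 and 3532 at lactation, and 79.3 and 112 at involution. Lactation was above all other arrays, pregnancy above puberty and involution, and puberty and involution overlapped. The stage means were 79.6 ± 8.14 (SD, n = 3), 180 ± 26.7 (SD, n = 2), 3829 ± 420 (SD, n = 2) and 95.9 ± 23.4 (SD, n = 2). On the log2 scale, lactation was 4.41 above pregnancy (standard error 0.21), a 21.3-fold difference, and involution differed from lactation by -5.34 (standard error 0.21). The difference between involution and puberty was 0.25 (standard error 0.19).

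**Figure D1:**
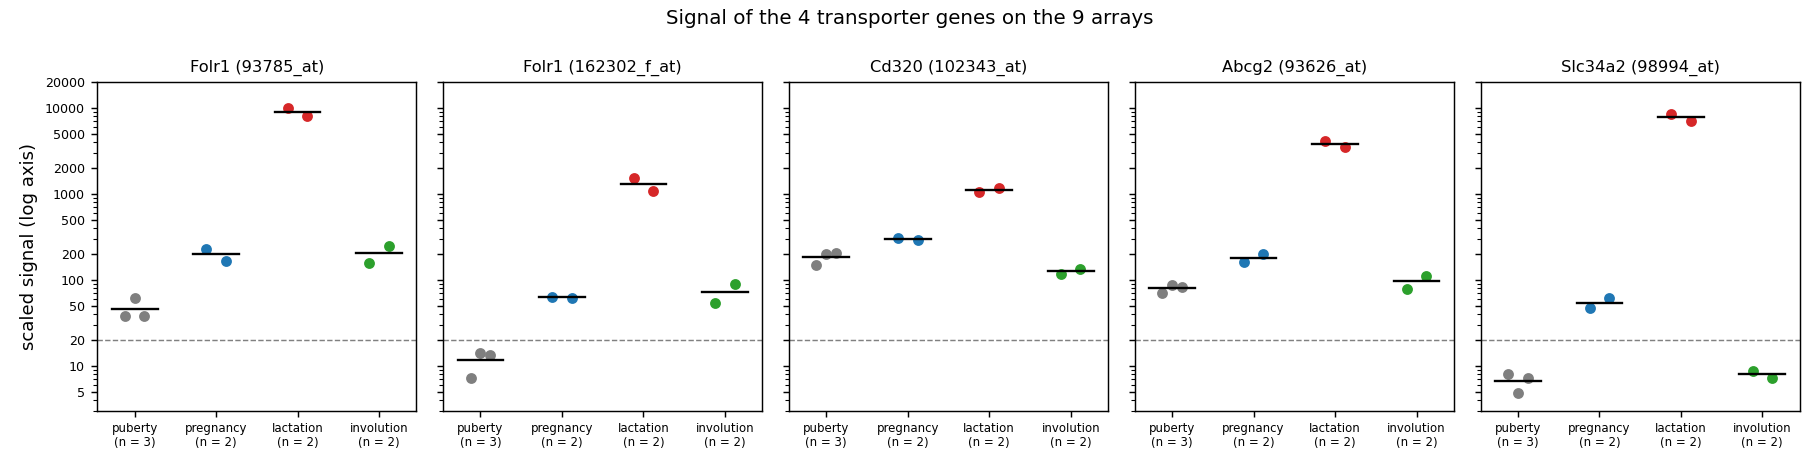
Scaled signal on a logarithmic axis of the 5 probe sets of Folr1, Cd320, Abcg2 and Slc34a2 by stage, with a point per array (n = 3 at puberty and n = 2 at each later stage), a bar at each stage mean and a dashed line at 20, the floor. In every panel the points of lactation are the highest, and the Slc34a2 arrays of puberty and involution lie under the floor.

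The 4 genes shared lactation as the highest stage and a level at pregnancy above that at puberty on every array, and they differed in size and in where they ended. On the log2 scale, the pregnancy level was above puberty by 2.13 (standard error 0.31) for Folr1 on its brighter probe set, 0.70 (standard error 0.15) for Cd320 and 1.18 (standard error 0.19) for Abcg2. For Slc34a2 it was at least 2.68-fold above puberty. The makeup of the gland differed at this step too: the summed signal of 8 skeletal muscle markers was 248.9 to 1284 at pregnancy, against 9592 to 23987 at puberty, and that of 6 basal epithelial markers was 3119 to 3371 at pregnancy, against 781 to 988 at puberty, with Krt5 under the floor on 7 of the 9 arrays. Their part in the transporter levels was not tested. Of the whole log2 difference between lactation and puberty, 27.9% was present at day 14 of pregnancy for Folr1, 26.8% for Cd320 and 21.0% for Abcg2, and the floor leaves no such share for Slc34a2. The involution level was 2.26% of that at lactation for Folr1, 11.1% for Cd320 and 2.50% for Abcg2. By day 4 of involution, then, Folr1 stood at its pregnancy level, Abcg2 within its spread of puberty, Slc34a2 under the floor as at puberty, and Cd320 below puberty.

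**Figure D2:**
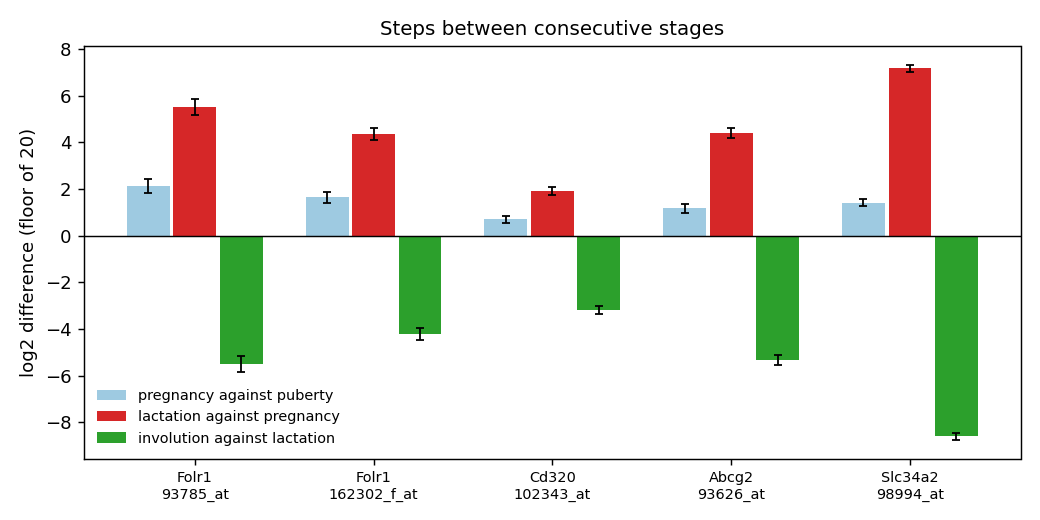
Log2 difference between consecutive stages for the 5 probe sets, with pregnancy against puberty in pale blue, lactation against pregnancy in red and involution against lactation in green; error bars are standard errors of the fit over 9 arrays with the floor of 20. Red bars run from 1.92 for Cd320 to 7.18 for Slc34a2, and green bars from -3.17 for Cd320 to -8.60 for Slc34a2, where the last is a bound set by the floor. The pale blue bars of Slc34a2 and of the dimmer Folr1 probe set are bounds too. The floor makes the error bars of these bounds too small.

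Likeness of pattern was measured by Pearson's r of the log2 values over the 9 arrays, which share their scaling and in which the 2 lactation arrays set most of r. Among the 4 genes, r was highest between Abcg2 and Slc34a2 (0.997) and lowest between Cd320 and Folr1 (0.870 and 0.883 for its probe sets). The genes most like Abcg2 were Slc34a2, Cldn8, which encodes a claudin of tight junctions, Kpnb1, which encodes importin beta, Elovl1, a fatty acid elongase gene, and Igfals, and r was 0.997 with Slc34a2 and 0.993 with each of the others. Those most like Slc34a2 were Abcg2, Cldn8 (r = 0.996), the small GTPase gene Rab18 (0.995), Gps1 (0.994) and the sialyltransferase gene St6gal1 (0.992). The Cldn8 signal averaged 671 ± 123 (SD, n = 2) in lactating glands, against 55.3 ± 3.21 (SD, n = 2) in pregnant ones. The Kpnb1 probe set averaged 64.2 at lactation. Its means of 11.5 at puberty, 25.7 at pregnancy and 19.4 at involution were near or under the floor. The genes most like Folr1 on its brighter probe set were Clu, which encodes clusterin (0.993), Krtcap2 (0.992), Spout1 (0.990), the milk fat globule gene Xdh (0.990) and Hdlbp (0.989). On the dimmer Folr1 probe set they were Xdh (0.995), Krtcap2 (0.993), the milk lipase gene Cel (0.992), Tmbim1 (0.991) and Homer2 (0.990). Xdh shared the raised level at involution, with 375 ± 87.9 (SD, n = 2) there and 186 ± 16.9 (SD, n = 3) at puberty. The genes most like Cd320 were Pdcd4 (0.987), the fatty acid binding protein gene Fabp3 (0.985), Mydgf (0.985), Rnf220 (0.984) and Ssr2, which encodes a subunit of the translocon of the endoplasmic reticulum (0.980). Such high values are common on these arrays: 428 of the other 9782 probe sets reached r of 0.95 with Slc34a2, 401 with Abcg2, 211 with Folr1 on its brighter probe set and 79 with Cd320.

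In whole glands, fewer cells of a type and less RNA per cell cannot be told apart, so the cell type markers are given beside these levels. The summed signal of 9 luminal epithelial markers was 1934 to 3347 at puberty, 5851 to 6603 at pregnancy, 4766 to 5566 at lactation and 3373 to 4947 at involution. From pregnancy to lactation 1 of the 9 rose, Elf5, the gene of a transcription factor of milk-secreting cells, and 4 fell, the keratin genes Krt8, Krt18 and Krt19 and the claudin gene Cldn3 (limma, adjusted p between 0.000537 and 0.0358 for these 5, named after their values were seen). Only Esr1 was under the floor on some arrays, 4 of the 9. The luminal sum was lower on both lactation arrays than on both pregnancy arrays, but its members did not move together. Elf5 alone had a mean of 3008 at lactation, against 1155 at pregnancy. The means of Epcam, Cdh1, Cldn7 and Esr1 were also higher at lactation than at pregnancy, without passing the test. The sum of 7 white adipocyte markers was 3394 to 3759 at lactation, against 10496 to 13740.2 at pregnancy, with 6 of the 7 lower and Pparg under the floor on both lactation arrays. It was 17086 to 18722 at involution, with 7 of the 7 higher than at lactation. Over all probe sets tested, 21.6% were higher and 19.7% lower at lactation against pregnancy, and 22.1% were higher at involution against lactation. What part these shifts in cell makeup have in the transporter levels was not tested.

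**Figure D3:**
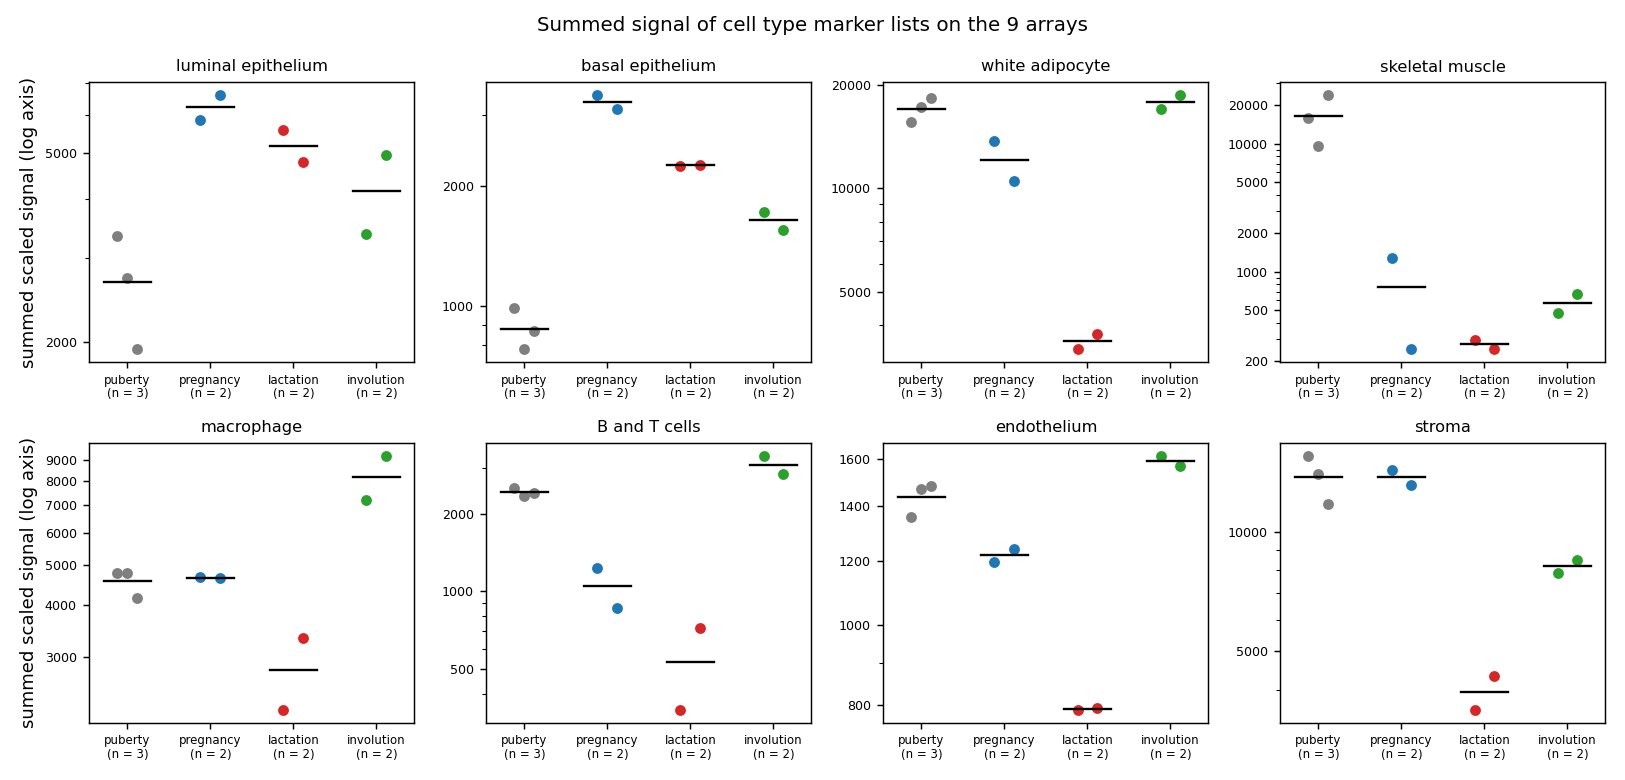
Summed scaled signal on logarithmic axes of 8 lists of cell type markers by stage, with a point per array (n = 3 at puberty and n = 2 at each later stage) and a bar at each stage mean. The adipocyte sum is 3394 to 3759 at lactation, against 10496 to 13740.2 at pregnancy, while the luminal sum is 4766 to 5566 at lactation, against 5851 to 6603 at pregnancy.

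Other genes of the same pathways were tested, from 5 lists on folate, cobalamin, phosphate and calcium, ABC transporters and other vitamins. Of 142 listed genes other than the 4 transporters, 67 could be tested, each by its brightest probe set. Of these, 40 (59.7%) differed across the stages, against 51.6% of all probe sets tested. The sets are unlike, since all probe sets include dimmer ones of genes that have several. At lactation against pregnancy, 20 list genes were higher and 11 lower, where 21.6% of all probe sets were higher and 19.7% lower. This balance depended on the scaling: with the signals as deposited, 15 list genes were higher and 14 lower, and over all probe sets 1796 were higher and 2226 lower, against 2110 and 1925 with equal medians. With quantile normalization 18 list genes were higher and 11 lower, and 1924 and 2088 of all probe sets. At involution against lactation, 14 were higher and 19 lower, where 22.1% of all were higher and 23.0% lower. At pregnancy against puberty, 5 were higher and 8 lower, against 6.20% and 5.22% of all. The 20 higher and 11 lower genes at lactation became 12 and 7 without pregnancy replicate 1, and the 20 became 13 without pregnancy replicate 2. The 13 calls at pregnancy against puberty became 8, 4 and 1 without puberty replicate 2, pregnancy replicate 1 and pregnancy replicate 2, and 5 with the replicate number as a block, so no single gene is called in that step below. All adjusted p-values are limma's, with the Benjamini-Hochberg method run over the 9783 tested probe sets.

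In the folate list, Folr2, the other folate receptor gene on the array, had the opposite pattern to Folr1. Folr2 encodes folate receptor beta, known from macrophages. Its signals were 364, 408 and 411 at puberty, 275 and 312 at pregnancy, 164 and 160 at lactation, and 385 and 502 at involution. It fell at lactation against pregnancy by 0.86 on the log2 scale (standard error 0.16, adjusted p = 0.00368) and rose at involution against lactation by 1.44 (standard error 0.16, adjusted p = 0.000224). Both lactation arrays were below all other arrays. The sum of 9 macrophage markers was 2228 to 3328 at lactation, against 4659 to 4674 at pregnancy. At this step 6 of 9 were lower, where 19.7% of all probe sets were. It was 7186 to 9212 at involution, with 6 of 9 higher than at lactation, where 22.1% of all probe sets were. Fcgr3 was under the floor on 6 of the 9 arrays and the other macrophage markers on none. Adipocyte, B and T cell, endothelial and stromal sums also were lower at lactation than at pregnancy and higher at involution than at lactation. From puberty to pregnancy the macrophage sums overlapped, while Folr2 was lower on both pregnancy arrays. The part of any of these cells in the Folr2 values was not tested.

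Gldc, which encodes the glycine decarboxylase that feeds one-carbon units to folate, had the strongest change of the list. Its signals were 14.9, 23.1 and 29.8 at puberty, 31.7 and 32.4 at pregnancy, 813 and 1155 at lactation, and 47.4 and 38.5 at involution. It rose at lactation against pregnancy by 4.92 (standard error 0.28, adjusted p = 1.79e-05), or 30.2-fold, and fell by 4.50 at involution against lactation (standard error 0.28, adjusted p = 1.5e-05). Fpgs, whose enzyme adds the glutamate tail that keeps folate in cells, stood at 200 ± 18.9 (SD, n = 2) at lactation, against 147 ± 21.3 (SD, n = 2) at pregnancy, which did not pass (adjusted p = 0.113), and fell at involution against lactation by 1.56 (adjusted p = 0.000427). Shmt1 and Shmt2 encode the cytosolic and mitochondrial serine hydroxymethyltransferases, and they moved in opposite ways at lactation against pregnancy, by -1.0 (adjusted p = 0.0117) and 0.89 (adjusted p = 0.0124), and both calls were lost without pregnancy replicate 1 (adjusted p = 0.0654 and 0.0694) and that of Shmt2 also without either lactation array (adjusted p = 0.0537 and 0.051). Of the uptake genes, the reduced folate carrier gene Slc19a1 stood at 76.6 ± 25.1 (SD, n = 2) at lactation, against 80.8 ± 13.1 (SD, n = 2) at pregnancy (adjusted p = 0.815), and the proton-coupled transporter gene Slc46a1 71.1 ± 16.8 (SD, n = 2) and 74.7 ± 2.34 (SD, n = 2) at the same stages (adjusted p = 0.884). A dimmer probe set of Slc19a1 rose at involution against lactation by 1.59 (adjusted p = 0.0326), where the brighter one differed by -0.14 (adjusted p = 0.745). The brighter one carries the suffix for shared probes described for Folr1.

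Of the 12 folate genes tested, 4 rose at lactation against pregnancy (Gldc, Shmt2, Dld and Gcsh) and 2 fell (Folr2 and Shmt1). Dld and Gcsh, named after their values were seen, encode other parts of the glycine cleavage system, and they rose by 0.86 and 0.54. At involution against lactation 2 rose (Folr2 and Gart, of which Gart was named after its value was seen) and 5 fell (Gldc, Fpgs, Shmt2, Dld and Gcsh). Of all probe sets, 21.6% rose and 19.7% fell at lactation against pregnancy, and 22.1% and 23.0% at involution against lactation. The median log2 difference of the 12 was -0.08 at lactation against pregnancy and -0.10 at involution against lactation, with 0.07 and -0.03 over all probe sets. The 4 rises became 2 without either pregnancy array and 1 without either lactation array, and the 2 falls became 1 without pregnancy replicate 1. The 2 rises at involution became 1, and the 5 falls 3, without lactation replicate 2 or involution replicate 2. Quantile normalization or the replicate block also left 1 of the 2 rises.

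In the cobalamin list, Tcn2, which encodes transcobalamin, the plasma carrier that the Cd320 protein binds, was high at lactation as well. Its signals were 453, 478 and 386 at puberty, 388 and 464 at pregnancy, 3554 and 3539 at lactation, and 546 and 523 at involution. It rose at lactation against pregnancy by 3.06 (standard error 0.15, adjusted p = 1.09e-05), or 8.36-fold, and fell at involution against lactation by 2.73 (standard error 0.15, adjusted p = 9.94e-06). Its pregnancy arrays overlapped those of puberty, while those of Cd320 lay above puberty. Of the 8 genes tested, Tcn2 was the only one called at lactation against pregnancy or at involution against lactation, with the floor, filter and arrays as described. The list's medians were 0.28 and -0.09. Over all probe sets, 21.6% rose at the first of these steps and 23.0% fell at the second. Mmut, the methylmalonyl-CoA mutase gene that uses cobalamin, had signals of 110 ± 1.22 (SD, n = 2) at lactation, against 73.9 ± 8.02 (SD, n = 2) at pregnancy (adjusted p = 0.105). The gastric intrinsic factor gene Cblif and the endocytic receptor gene Lrp2 had means of 30.6 and 14.5 at lactation, against 12 and 8.41 at pregnancy, near or under the floor. The 1 rise and 1 fall became 2 each without lactation replicate 1, where Cblif passed (adjusted p = 0.0214 and 0.0196), and without lactation replicate 2, where Abcd4, which encodes a lysosomal cobalamin transporter, passed (adjusted p = 0.0193 and 0.0214). Abcc1, an exporter gene, had signals of 3.84 and 9.96 at lactation and 19.1 and 17.8 at involution, all under the floor. Such values have no order. It passed as lower at lactation against pregnancy with no floor (adjusted p = 0.0274) or an added constant of 16 (adjusted p = 0.0416). Without pregnancy replicate 2 the Abcc1 difference at that step was -0.82. With no floor Abcc1 passed as higher at involution against lactation (adjusted p = 0.0462). Lrp2 rose at involution against lactation with no filter (adjusted p = 0.0408) or without lactation replicate 2 (adjusted p = 0.028).

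In the list on phosphate and calcium, Atp2b2, which encodes the calcium pump that moves calcium into milk, had a step like that of Slc34a2. Its signals were 26.8, 12.3 and 10.5 at puberty, 4.90 and 10.9 at pregnancy, 366 and 321 at lactation, and 9.42 and 9.57 at involution. Lactation was at least 17.1-fold above pregnancy (adjusted p = 1.79e-05) and involution at least 17.1-fold below lactation (adjusted p = 1.01e-05), with the floor applied. Its pregnancy and involution arrays all lay under the floor, which removes the spread there, so these p-values are too small. The Atp2b2 probe set passed the filter through lactation alone. Vdr, the vitamin D receptor gene, rose at lactation against pregnancy by 2.12 (adjusted p = 0.0021) and fell at involution against lactation by 1.87 (adjusted p = 0.00332), and its other probe set did likewise. Of the other phosphate transporters, Slc20a1, which encodes the widely expressed PiT-1, had signals of 106, 113 and 130 at puberty, 88.2 and 118 at pregnancy, 184 and 176 at lactation, and 163 and 132 at involution. It rose at lactation against pregnancy by 0.82 (standard error 0.21, adjusted p = 0.0141), which was lost without pregnancy replicate 1 (adjusted p = 0.0881) or lactation replicate 1 (adjusted p = 0.062), and its difference at involution against lactation was -0.29 (adjusted p = 0.287). Slc34a1, the kidney relative of Slc34a2, stayed near the floor, with means of 27.3 at lactation and 20.8 at pregnancy (adjusted p = 0.237, and 0.00539 without lactation replicate 2). Xpr1, which encodes a phosphate exporter and was named after its value was seen, fell at lactation against pregnancy by 0.83 (adjusted p = 0.00812), which was lost without pregnancy replicate 2 (adjusted p = 0.0569).

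Of the 14 genes of this list, 3 rose at lactation against pregnancy (Atp2b2, Vdr and Slc20a1) and 2 fell (Xpr1 and Fgfr1). Fgfr1, a receptor gene for fibroblast growth factors, fell by 2.17 (adjusted p = 0.00206) and rose at involution against lactation by 3.18 (adjusted p = 0.000248). Of its lactation signals, 16.9 and 51.4, the lower was under the floor, which partly sets the size of both changes. The Fgfr1 probe set also carries the suffix for shared probes described for Folr1. At involution against lactation 4 rose (Fgfr1, Atp2a3, Stim1 and Xpr1) and 2 fell (Atp2b2 and Vdr). Among all probe sets, 21.6% rose and 19.7% fell at lactation against pregnancy, and 22.1% and 23.0% at involution against lactation. Atp2a3 encodes a calcium pump of the endoplasmic reticulum and Stim1 its calcium sensor, and they rose by 1.63 and 1.29. The other 2 probe sets of Atp2a3, both dim, had a log2 difference of 0 at this step with the floor applied (adjusted p = 1). The median difference was -0.27 at lactation against pregnancy and 0.27 at involution against lactation. The 2 falls at lactation became 1 without pregnancy replicate 2, 6 without lactation replicate 2 and 4 with the signals as deposited.

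**Figure D4:**
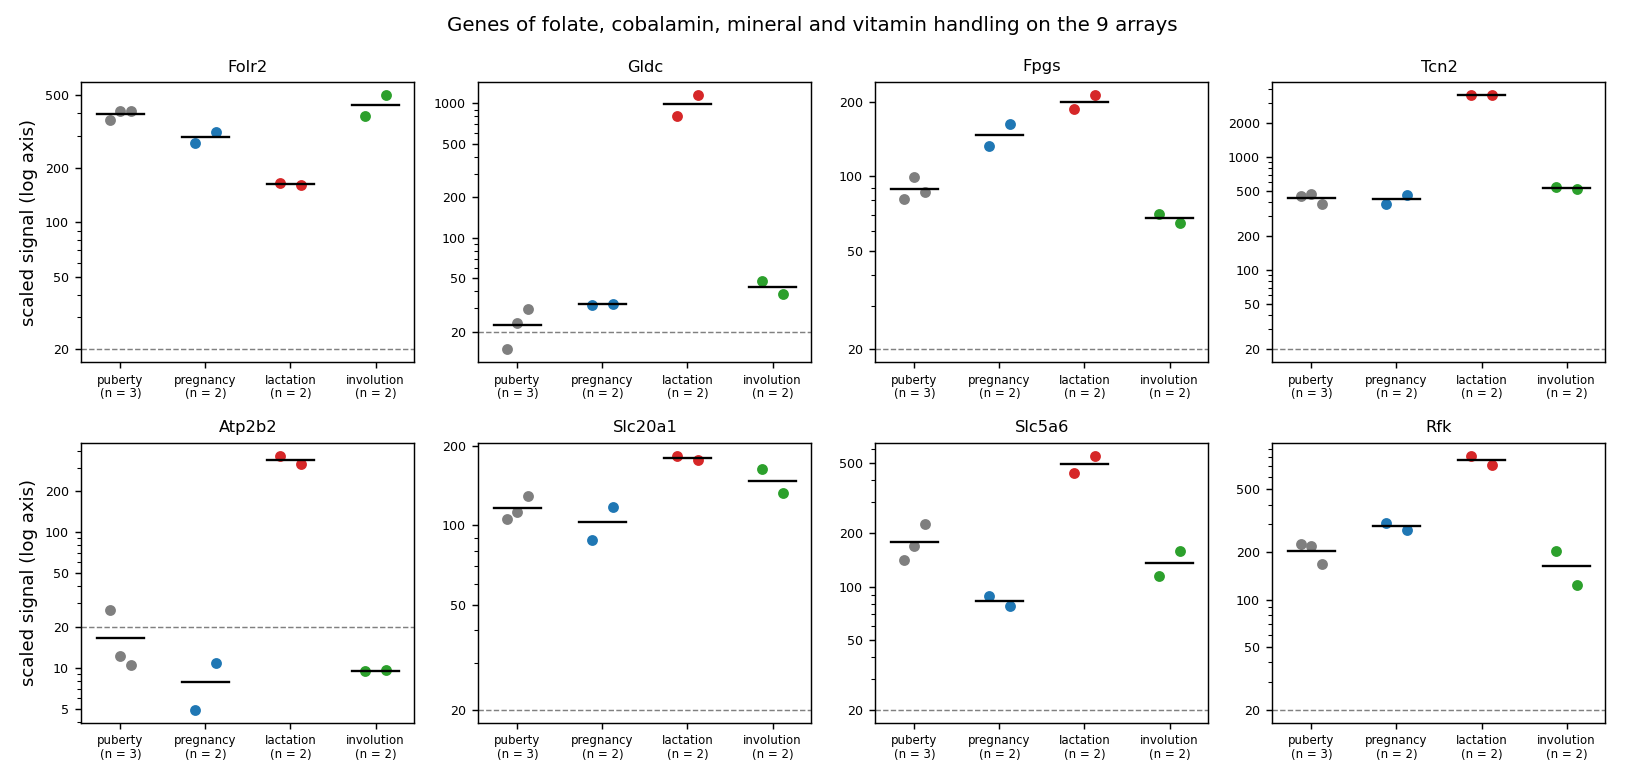
Scaled signal on logarithmic axes of Folr2, Gldc, Fpgs, Tcn2, Atp2b2, Slc20a1, Slc5a6 and Rfk by stage, with a point per array (n = 3 at puberty and n = 2 at each later stage), a bar at each stage mean and a dashed line at 20, the floor. Folr2 is lowest at lactation (164 and 160), while Tcn2 is highest there (3554 and 3539).

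Of the 20 other ABC transporter genes tested, 6 rose and 4 fell at lactation against pregnancy, where 21.6% and 19.7% of all probe sets did. The median of the 20 was 0.33. The largest rises were those of Abcb9 and Abca4. Abcb9, a lysosomal peptide transporter gene, rose by 1.3 (adjusted p = 0.00139), with 235 ± 22.0 (SD, n = 2) at lactation, against 95.7 ± 9.60 (SD, n = 2) at pregnancy. Abca4 was at least 2.33-fold over the floor (adjusted p = 0.00102, and 0.273 with a floor of 50). It passed the filter through lactation alone. Its arrays of the other stages all lay under the floor, so its p-value is too small. The 4 that fell were Abca1, which exports cholesterol, by 2.73 (adjusted p = 0.000529), Tap1, which carries peptides for antigen presentation, by 1.67 (adjusted p = 0.00048), and Abcd2 and Abcb10, named after their values were seen. A dim probe set of Tap1 rose instead (0.95, adjusted p = 0.00592), and a second one of Abca1 did not pass (-1.43, adjusted p = 0.164). At involution against lactation 5 rose and 5 fell, where 22.1% and 23.0% of all probe sets did. The 5 that rose were the 4 that fell before and Abcg1, by 0.85 (adjusted p = 0.0255). At this step the dim probe set of Tap1 fell instead (-0.68, adjusted p = 0.023). The second one of Abca1 did not pass (1.14, adjusted p = 0.252). Abcg1, the only other ABCG gene tested, is a sterol exporter gene of macrophages and other cells, and its mean was 237 ± 32.2 (SD, n = 2) at lactation, against 207 ± 9.49 (SD, n = 2) at pregnancy (adjusted p = 0.593). Its rise was lost without lactation replicate 1 (adjusted p = 0.172), lactation replicate 2 (adjusted p = 0.0784), involution replicate 2 (adjusted p = 0.165) or either pregnancy array (adjusted p = 0.0519 and 0.053), and with a floor of 50 or no filter (adjusted p = 0.0662 and 0.0691). The 6 rises at lactation became 3 without either pregnancy array, and the 4 falls 2 without pregnancy replicate 1 or either lactation array. The 5 rises at involution became 3 without either lactation array. With a floor of 50 these counts were 2 rises and 2 falls at lactation and 2 rises and 3 falls at involution, and the 6 rises were 3 as deposited, with no floor, with a filter of 100 and with the replicate block.

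Among carriers and enzymes of other vitamins, 6 of 15 genes rose and 3 fell at lactation against pregnancy, where 21.6% and 19.7% of all probe sets did. The median of the 15 was 0.19. The 6 rises became 5 as deposited, with quantile normalization, a floor of 50, no filter or the replicate block. The 3 falls became 2 with a floor of 50 or no filter, and 4 with no floor or an added constant of 16. Slc5a6, which encodes the transporter of biotin and pantothenate, had signals of 142, 170.5 and 227 at puberty, 88.4 and 77.6 at pregnancy, 441 and 550.1 at lactation, and 115 and 158 at involution. It rose at lactation against pregnancy by 2.57 (standard error 0.26, adjusted p = 0.000178) and fell at involution against lactation by 1.87 (adjusted p = 0.000585). Unlike the 4 transporters, it was lower on the pregnancy arrays than on the puberty arrays. Rfk encodes riboflavin kinase, the first enzyme that uses riboflavin, a substrate of the Abcg2 protein. Its signals at lactation, 818 and 719, were above those of all other arrays, and it rose against pregnancy by 1.39 (adjusted p = 0.00244) and fell by 2.28 at involution against lactation (adjusted p = 0.000167). Its 2 other probe sets changed in the same directions in both steps. Pdxk, the pyridoxal kinase gene, rose at lactation by 1.31 (adjusted p = 0.000701). Its other probe set, with a mean signal of 18.7, had a log2 difference of 0 at this step with the floor applied. That probe set did not differ across the stages (F test, adjusted p = 0.255).

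The 3 vitamin genes that fell at lactation were Rbp4, which encodes the plasma carrier of retinol, by 2.97 (adjusted p = 0.000142), the endocytic receptor gene Lrp1, with a log2 difference of -1.83 (adjusted p = 0.000129), and Slc44a1, named after its value was seen. The same 3 rose at involution against lactation, Rbp4 by 4.92 (adjusted p = 1.14e-05), and 6 others fell. At that step 22.1% of all probe sets rose and 23.0% fell. The Slc44a1 rise, 1.17 (adjusted p = 0.0493), was lost with equal 75th percentiles (adjusted p = 0.0673), quantile normalization (0.0651), a floor of 50 (0.127), no filter (0.129), no trend (0.0557), the replicate block (0.0795) and each array left out other than lactation replicate 1. Without lactation replicate 2 it was 0.53 (adjusted p = 0.337), and the Slc44a1 fall was lost without lactation replicate 2 (adjusted p = 0.143) or either pregnancy array (adjusted p = 0.109 and 0.0943), with a floor of 50 (0.0652) and with no filter (0.0671). Rbp4 averaged 907 ± 199 (SD, n = 2) at involution, against 29.9 ± 4.81 (SD, n = 2) at lactation. Adipocytes express Rbp4, and the adipocyte marker sums given above were also lowest at lactation. So were the sums of macrophage, B and T cell, endothelial and stromal markers. The part of any of these cells in the Rbp4 values was not tested.

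**Figure D5:**
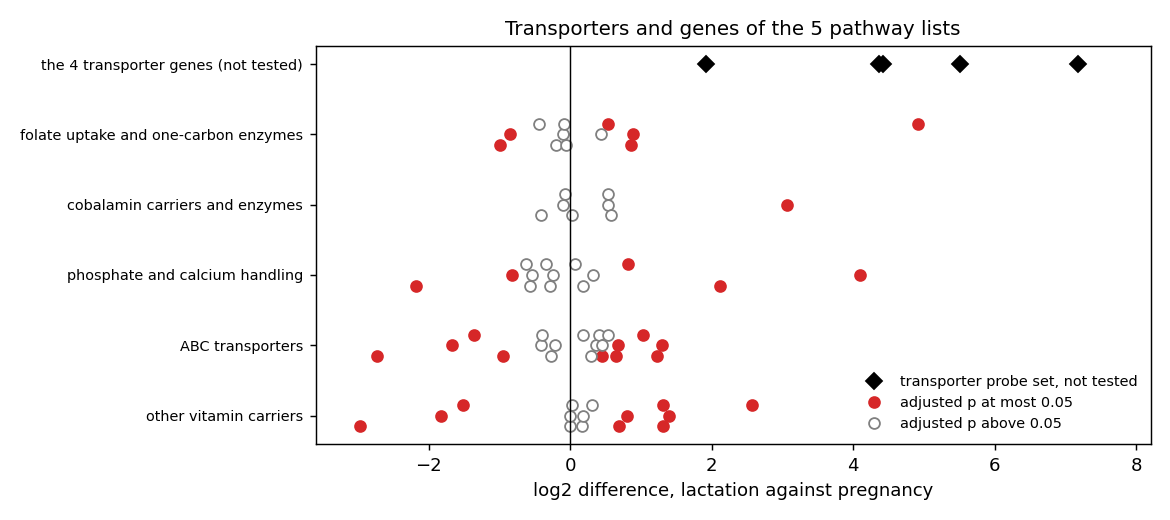
Log2 difference between lactation and pregnancy for the 5 probe sets of the 4 transporter genes (black diamonds, not tested) and for the tested genes of the 5 pathway lists; red points have an adjusted p of at most 0.05 and open points do not. The transporters lie between 1.92 and 7.18, and of the list genes Gldc (4.92), Atp2b2 (4.10, a bound) and Tcn2 (3.06) lie furthest to the right.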

How the data were processed

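RNA of 9 whole inguinal mammary glands was hybridised to MG-U74Av2 arrays. The deposited values are linear MAS5 signal intensities, as the submitters' notes on processing have it (version not given in the sources used here). The authors scaled them array by array, and the values show equal trimmed means (125.1) on all arrays and no centring per gene. From these, the 66 controls were dropped, medians were made equal between arrays, a floor of 20 was set and log2 was taken. Where any stage mean exceeded 20, the probe set was tested with limma 3.58.1 (lmFit, eBayes with a trend) in R 4.3.3: a moderated F test over 4 stages and contrasts between consecutive stages, over all 9 arrays, adjusted by Benjamini-Hochberg at 0.05. The steps were checked on simulated data. The platform's annotation gave 1 symbol to 10833 probe sets, several to 396 and none to 1193. Symbols were updated with RefSeq's GRCm38.p6 table.

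The transporters and gene lists were chosen with earlier results of these arrays known. Named are the transporters, the list genes with the smallest F test p (up to 6 per list), relatives of the transporters and the 5 genes most like each probe set. Alternatives were other scalings, floors, filters, an added constant, no trend, a plain analysis of variance, a replicate block and leaving out each array. Figures were drawn with matplotlib 3.10.9.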

Additional observations from a re-analysis of the deposited data

How the results depend on the processing

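The 15 log2 differences of the transporter probe sets between consecutive stages kept their sign under every scaling, floor, added constant, replicate block and left-out array that was run. With quantile normalization, lactation against pregnancy was 4.01 for Abcg2, 1.69 for Cd320, 4.96 for Folr1 (brighter probe set) and 6.65 for Slc34a2, and involution against lactation was -4.93 for Abcg2, -5.01 for Folr1 (brighter probe set) and -8.09 for Slc34a2. With no floor, pregnancy against puberty was 2.50 for Folr1 (dimmer probe set) and 3.05 for Slc34a2, whose involution difference was -9.94. With a floor of 50 these 3 values were 0.32, 0.14 and -7.28, since all signals under 50 are then set to 50. With an added constant of 16, Slc34a2 gave 1.62, 6.80 and -8.34 in stage order, Folr1 (dimmer probe set) 4.06 and -3.93 in the last 2 steps, and Abcg2 -5.11 at involution. Leaving out each array in turn gave -5.59 to -5.08 for Abcg2 and -4.58 to -3.87 for Folr1 (dimmer probe set) at involution, and 1.23 to 1.60, 7.0 to 7.36 and -8.76 to -8.46 for Slc34a2.

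All counts over the probe sets stayed within 1.5 times under the scalings, floors and filters run. At pregnancy against puberty the 1118 calls became 543 with a replicate block and 288 to 1104 with each array left out in turn, and the list genes' 13 calls became 8 with no filter, 5 with a replicate block and 1 to 12 with each array left out. At lactation against pregnancy the 4035 calls became 2573 to 4089 and the list genes' 31 calls 19 to 31. The replicate number pairs no arrays: deviations of arrays with the same number correlated with r of -0.153 to 0.049. Beside the pathway counts given with each list, the block moved no other count over all probe sets or over all list genes by more than 1.5 times. The small number of arrays limits precision, and signals near the floor of 20 carry no order.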
